A study of Mus musculus with 6 samples.

Results

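The genes described here are the protein-coding genes of the oxidative phosphorylation system, that is, those encoded on mitochondrial DNA together with the nuclear genes named for subunits and helpers of complexes I to V. They were chosen by name and biotype (symbols beginning with mt-, Nduf, Uqcr, Cox4 to Cox8 or Atp5, and Sdha to Sdhd), and the group was selected on these same data after mitochondrial transcripts had been seen to differ between the groups. The rule found 105 of the 29659 genes in the deposited table, of which 13 are mitochondrially encoded and 92 are nuclear. Because the choice of the group used the difference in mitochondrial transcripts, the values of the 13 mitochondrially encoded genes in the comparison are given as a description, without p-values, while the nuclear genes carry the test.

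Respiratory complexes I, III and IV pass electrons from NADH to oxygen and pump protons across the inner mitochondrial membrane, complex II feeds in electrons from succinate, and complex V, the ATP synthase, uses the proton gradient to make ATP. Complexes I, III, IV and V are built from subunits of both genomes, whereas every subunit of complex II is nuclear. The mitochondrial genome is transcribed as long precursors from both strands that are cut into single messenger, transfer and ribosomal RNAs, while each nuclear subunit gene has its own promoter.

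RNA was sequenced from the lateral ganglionic eminence (LGE), the embryonic source of striatal projection neurons, of C57BL/6 mice at embryonic day 16.5. The 3 Zfhx3-CKO libraries came from mice of genotype Dlx5/6-Cre; Zfhx3F/F, in which Cre can delete floxed Zfhx3, which encodes a transcription factor with many zinc fingers and homeodomains. The 3 control libraries came from Dlx5/6-Cre mice without floxed Zfhx3, so both groups carried the Cre transgene. The Dlx5/6 regulatory elements drive Cre in cells of the ganglionic eminences, so cells of other lineages in the dissected tissue would keep Zfhx3. The labels do not say whether each library came from a separate embryo or from pooled embryos, so the p-values measure the spread between these libraries only, which may be technical.

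Library totals were 18960574 to 20311799 counts in the Zfhx3-CKO group and 15938590 to 16753355 in the control group and did not overlap. Values are given as CPM, counts scaled to a common library total with TMM factors. Zfhx3 itself was at 98.7, 87.3 and 99.3 CPM in Zfhx3-CKO libraries and at 134, 135 and 101 CPM in control libraries, a log2 fold change of -0.37 ± 0.12 (SE) that missed the threshold (edgeR adjusted p 0.0911). Counts over the whole gene do not isolate the floxed part, which the labels do not describe. Xist, the transcript of the inactive X chromosome, had 55947 to 59631 counts per library in the Zfhx3-CKO group and 5 to 9 in the control group, while 4 Y-linked genes together had 5 to 8 counts in the Zfhx3-CKO group and 4939 to 5451 in the control group. The 2 groups therefore differ in sex as well as genotype, and the part of each in any difference cannot be told apart.

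Of the 8 striatal projection neuron markers, 4 fell in the Zfhx3-CKO group (Bcl11b, Foxp1, Foxp2 and Gad2) and none rose by edgeR at an adjusted p under 0.05, beside 3.48% of all tested genes called lower. The calls of Bcl11b, Foxp2 and Gad2 were each lost without any of 3 libraries (Zfhx3-CKO 1, control 1 or control 2; highest adjusted p 0.149, 0.0992 and 0.134), and that of Gad2 also without Zfhx3-CKO libraries 1 and 3 (adjusted p 0.0618). The summed level of the 8 was 2685 to 2906 CPM in Zfhx3-CKO libraries and 3252 to 3727 CPM in control libraries. The 8 cortical excitatory neuron markers summed to 145, 37.4 and 231 CPM in Zfhx3-CKO libraries 1, 2 and 3 and to 35.5 to 40.4 CPM in control libraries, so Zfhx3-CKO libraries 1 and 3 stood apart. A fit without them leaves 1 Zfhx3-CKO library against 3 controls, which alone supply the spread, and the calls it changes among the genes named here are given beside them. Among 7 progenitor markers, summed at 2444 to 3257 CPM in Zfhx3-CKO libraries against 2066 to 2308 CPM in control libraries, 2 rose (Mki67 and Top2a), beside 3.87% of all tested genes. The call of Top2a was lost without any of 5 libraries (all but Zfhx3-CKO 3; highest adjusted p 0.177), with library totals only and with limma-trend, and that of Mki67 without Zfhx3-CKO library 1 or control library 1 (highest adjusted p 0.0735). The summed level of 4 endothelial markers was 126 to 149 CPM in Zfhx3-CKO and 110 to 112 CPM in control libraries, that of 5 erythroid markers 704 to 2549 and 709 to 1078 CPM in these groups, and that of 4 microglial markers 127 to 201 CPM in Zfhx3-CKO and 190 to 273 CPM in control libraries. Of the 4 microglial markers, P2ry12 fell and none rose by edgeR, and 3 had a log2 fold change below 0 and 1 above it (0.61). No endothelial or erythroid marker passed by edgeR, although the 4 tested of each kind all had folds above 0. DESeq2 called 1 microglial, 1 endothelial and 1 erythroid marker higher and 1 microglial marker lower. Of all 29659 genes it called 1011 higher and 755 lower. No marker was at 0 in every library. The part of these differences in the results below was not tested, and in bulk tissue fewer cells of a type and less RNA per cell cannot be told apart.

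The sequences below matter for reading the counts, because a stretch of mouse chromosome 1 holds annotated copies of 7 of the 13 mitochondrially encoded genes. The deposited table lists them as unprocessed pseudogenes on the minus strand, within chr1:24611535-24616197, and in GENCODE vM21 transcripts (GRCm38) they matched the mitochondrial gene at 99.71 to 100% of aligned bases. Identical bases cannot be assigned to one gene or the other from sequence alone, and the sources used here do not say how reads with 2 equal matches were counted. The copies of mt-Co2, mt-Atp6, mt-Co3 and mt-Nd4l held no difference over 98.99 to 99.87% of the gene, that of mt-Nd4 none over 63.57%, and those of mt-Nd3 and mt-Co1 held 1 difference each. Positions are counted from 1 at the 5′ end of the mitochondrial transcript, with the mitochondrial base first, and capitals mark the base that differs, T3C in mt-Nd3 and A1066T in mt-Co1.
mt-Nd3, bases 1 to 60: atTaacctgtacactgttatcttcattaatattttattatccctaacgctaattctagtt
Gm28438, its copy: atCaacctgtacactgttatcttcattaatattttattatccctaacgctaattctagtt
mt-Co1, bases 1063 to 1122: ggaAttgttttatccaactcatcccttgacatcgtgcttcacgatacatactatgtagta
Gm29216, its copy: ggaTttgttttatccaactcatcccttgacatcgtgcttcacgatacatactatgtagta
mt-Co3, bases 1 to 60: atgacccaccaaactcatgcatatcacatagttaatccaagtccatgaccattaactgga
Gm28437, its copy: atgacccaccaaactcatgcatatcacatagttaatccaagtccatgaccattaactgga
The pair for mt-Co3 shows why its reads carry no mark of origin. mt-Nd1, mt-Nd6, mt-Cytb and mt-Atp8 had no stretch of at least 100 bases at 95% identity or more in any other annotated transcript. mt-Nd2 matched Gm13339 over 510 bases (96.7% identity) and mt-Nd5 matched Gm4076 over 954 bases (95.2%). mt-Co1 matched Gm13340 over 1545 bases (97.6%) and mt-Co2 matched Gm13341 over 684 bases (95.9%). These matches are not among the 7 copies above, and their counts were not added to any gene. The search covered annotated transcripts only. On the mitochondrial genome mt-Atp8 lies between mt-Co2 and mt-Atp6, whose copies are neighbours on chromosome 1. The bases between those copies were not searched, so whether they hold a copy of mt-Atp8 was not tested.

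The mitochondrially encoded genes together took 1.44, 1.45 and 1.38% of all counts in Zfhx3-CKO libraries 1, 2 and 3, against 2.21, 2.16 and 2.24% in control libraries. The nuclear members took 0.601, 0.586 and 0.548% in Zfhx3-CKO libraries, against 0.531, 0.542 and 0.577% in control libraries. Every Zfhx3-CKO library was thus below every control library for the mitochondrially encoded genes, while the groups overlapped for the nuclear genes.

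Of the 13 mitochondrially encoded genes, 12 passed the filter on low counts. In the fit across all 16551 tested genes, 11 of these 12 were lower and 0 higher in the Zfhx3-CKO group at an adjusted p under 0.05, beside a background of 3.48% of tested genes called lower and 3.87% called higher. With that threshold left aside, 12 of 12 were lower in every Zfhx3-CKO library than in every control library, beside 15.9% of tested genes. The median log2 fold change of the 12 was -0.70, beside 0.00 over all tested genes, and the group means in Zfhx3-CKO libraries were 42.0 to 69.4% of those in control libraries. Since mitochondrial transcripts were the reason for choosing the group, these counts describe the libraries and support nothing further. The authors' deposited table has 12 mitochondrially encoded genes lower at an adjusted p under 0.05 and marks 1 of them as significant.

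**Figure D1:**
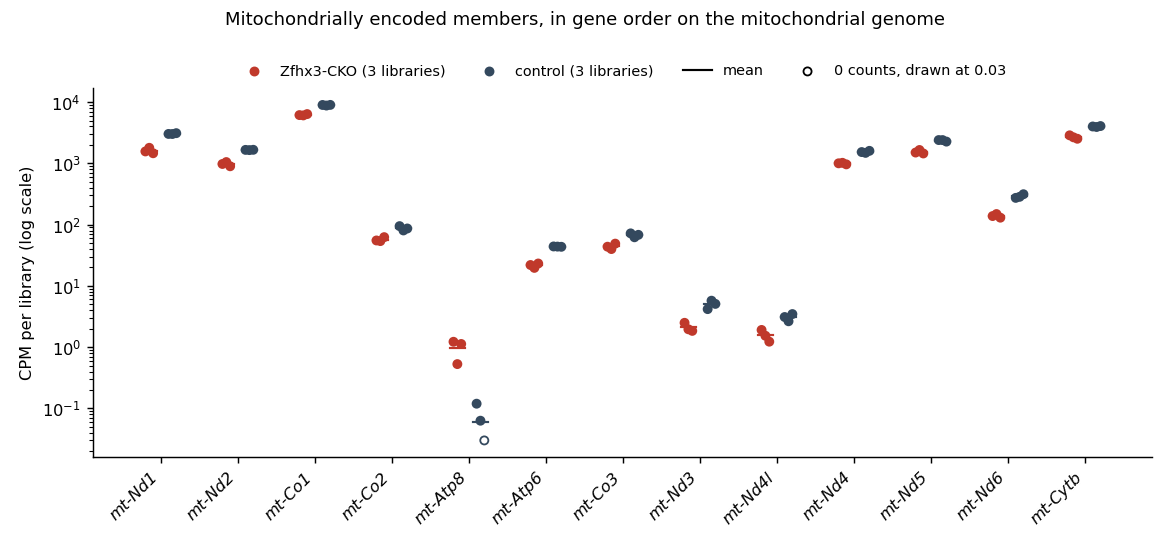
CPM per library (log scale) of the 13 mitochondrially encoded genes in their order on the mitochondrial genome, with Zfhx3-CKO libraries in red on the left of each pair, control libraries in grey-blue on the right and a line at each mean. In 12 genes the 3 Zfhx3-CKO libraries lie below the 3 control libraries, and mt-Atp8, at 0 to 1.22 CPM, lies the other way round.

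Complex I, the NADH dehydrogenase, takes 7 of its membrane-arm core subunits from mitochondrial DNA, and all 7 were lower in every Zfhx3-CKO library than in every control library. mt-Nd1 (chrMT:2751-3707, plus strand) was at 1566, 1795 and 1463 CPM in Zfhx3-CKO libraries and at 3023, 3015 and 3112 CPM in control libraries, a log2 fold change of -0.92 ± 0.08 (SE). mt-Nd6 (chrMT:13552-14070), the gene on the minus strand and the only one of the 13 there, was at 138, 149 and 130 CPM in Zfhx3-CKO libraries and at 273, 284 and 314 CPM in control libraries (-1.06 ± 0.08). The groups did not overlap in either of these genes. Since the kit does not mark strand, the counts of mt-Nd6 can hold reads from the opposite strand. mt-Nd2, mt-Nd4 and mt-Nd5 averaged 975 ± 76.7, 995 ± 29.2 and 1536 ± 105 CPM in Zfhx3-CKO libraries, against 1657 ± 9.86, 1538 ± 59.2 and 2356 ± 77.4 CPM in control libraries (SD, n = 3 each). Their log2 fold changes were -0.77, -0.63 and -0.62. mt-Nd3 and mt-Nd4l were counted at a far lower level, with means of 2.10 ± 0.35 and 1.56 ± 0.34 CPM in Zfhx3-CKO libraries and of 4.997 ± 0.78 and 3.07 ± 0.41 CPM in control libraries (SD, n = 3 each). Both have chromosome 1 copies, and mt-Nd4l (-0.98 ± 0.25) was the 1 tested mitochondrially encoded gene whose adjusted p was not under 0.05.

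In complex III, the cytochrome bc1 complex, the mitochondrially encoded subunit is the haem-carrying cytochrome b. mt-Cytb (chrMT:14145-15288, plus strand) was at 2869, 2662 and 2522 CPM in Zfhx3-CKO libraries and at 4000, 3924 and 4067 CPM in control libraries, a log2 fold change of -0.57 ± 0.07 (SE). The lowest control library thus stood above the highest Zfhx3-CKO library by more than the spread within either group.

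Complex IV, cytochrome c oxidase, has its catalytic core in mt-Co1, mt-Co2 and mt-Co3. mt-Co1 (chrMT:5328-6872, plus strand) carried more counts than any other of the 13, with 6141, 6065 and 6378 CPM in Zfhx3-CKO libraries and 8981, 8784 and 9004 CPM in control libraries (-0.53 ± 0.06). mt-Co2 was at 55.1, 53.8 and 62.5 CPM in Zfhx3-CKO libraries and at 94.5, 80.4 and 86.5 CPM in control libraries (-0.61 ± 0.09). mt-Co3 was at 43.6, 39.9 and 48.9 CPM in Zfhx3-CKO libraries and at 72.0, 62.2 and 68.2 CPM in control libraries (-0.61 ± 0.10). The folds of the 3 were alike, yet per length mt-Co1 was at 4003 ± 90.6 FPKM in Zfhx3-CKO libraries and 5785 ± 110 FPKM in control libraries, while mt-Co2 was at 83.4 ± 6.36 FPKM in Zfhx3-CKO libraries and 128 ± 10.6 FPKM in control libraries (SD, n = 3 each). The copy of mt-Co1 on chromosome 1 covers 31.26% of the gene and that of mt-Co2 99.56%, so the low counts of mt-Co2 and mt-Co3 are those of genes with an identical copy. mt-Co1 also matches Gm13340 over 1545 bases, at 97.6% identity.

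Complex V takes mt-Atp6, part of the proton channel, and the small subunit mt-Atp8 from the mitochondrial genome. mt-Atp6 was at 21.9, 19.7 and 23.2 CPM in Zfhx3-CKO libraries and at 44.0, 43.8 and 43.5 CPM in control libraries (-1.02 ± 0.09). mt-Atp8 went the other way and did not pass the filter, with raw counts of 25, 10 and 22 in Zfhx3-CKO libraries and 2, 1 and 0 in control libraries. Over the groups these are 57 and 3 counts, and the ratio of Zfhx3-CKO to control per total counts was 15.9 with an exact (Clopper-Pearson) 95% interval of 5.17 to 79.3, which covers counting error only. mt-Atp8 (chrMT:7766-7969) is 204 bases long and shares its last 43 bases, in capitals, with the start of mt-Atp6.
mt-Atp8: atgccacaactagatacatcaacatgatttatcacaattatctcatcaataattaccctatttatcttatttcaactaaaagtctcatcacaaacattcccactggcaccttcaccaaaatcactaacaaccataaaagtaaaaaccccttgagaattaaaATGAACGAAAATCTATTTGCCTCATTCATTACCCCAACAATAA
The kit does not mark strand, and reads from the shared bases can be counted to either gene. Whether chromosome 1 holds an unannotated copy of mt-Atp8 was not tested.

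Counts on several chromosome 1 copies differed less between the groups than those on the mitochondrial genes, or in the other direction. The copy of mt-Co3, Gm28437, was at 203, 208 and 206 CPM in Zfhx3-CKO libraries and at 157, 156 and 163 CPM in control libraries, a log2 fold change of 0.38 ± 0.06 (SE). The sum of gene and copy was 246, 248 and 255 CPM in Zfhx3-CKO libraries and 229, 218 and 231 CPM in control libraries, so the sum was higher in the Zfhx3-CKO group (0.15 ± 0.06) where the gene alone was lower. For mt-Co2 the copy, Gm28661, was at 178, 185 and 167 CPM in Zfhx3-CKO libraries and at 172, 170 and 176 CPM in control libraries, and the sum differed by -0.15 ± 0.06. For mt-Atp6 the copy, Gm10925, was at 200, 205 and 204 CPM in Zfhx3-CKO libraries and at 225, 227 and 236 CPM in control libraries, and the sum differed by -0.28 ± 0.06. The copies of mt-Nd3, mt-Nd4 and mt-Co1, Gm28438, Gm28439 and Gm29216, were lower in every Zfhx3-CKO library than in every control library. Their log2 fold changes were -0.74, -0.32 and -0.13. The copy of mt-Nd4l, Gm10222, overlapped between the groups and differed by -0.12. The share of the pair's counts that lay on the copy was 80.8 to 83.9% in Zfhx3-CKO libraries and 68.5 to 71.5% in control libraries for mt-Co3, and 72.8 to 77.4% in Zfhx3-CKO and 64.6 to 67.9% in control libraries for mt-Co2. For these genes the size and, for mt-Co3, the direction of the difference therefore depend on which gene the shared reads are counted to.

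**Figure D2:**
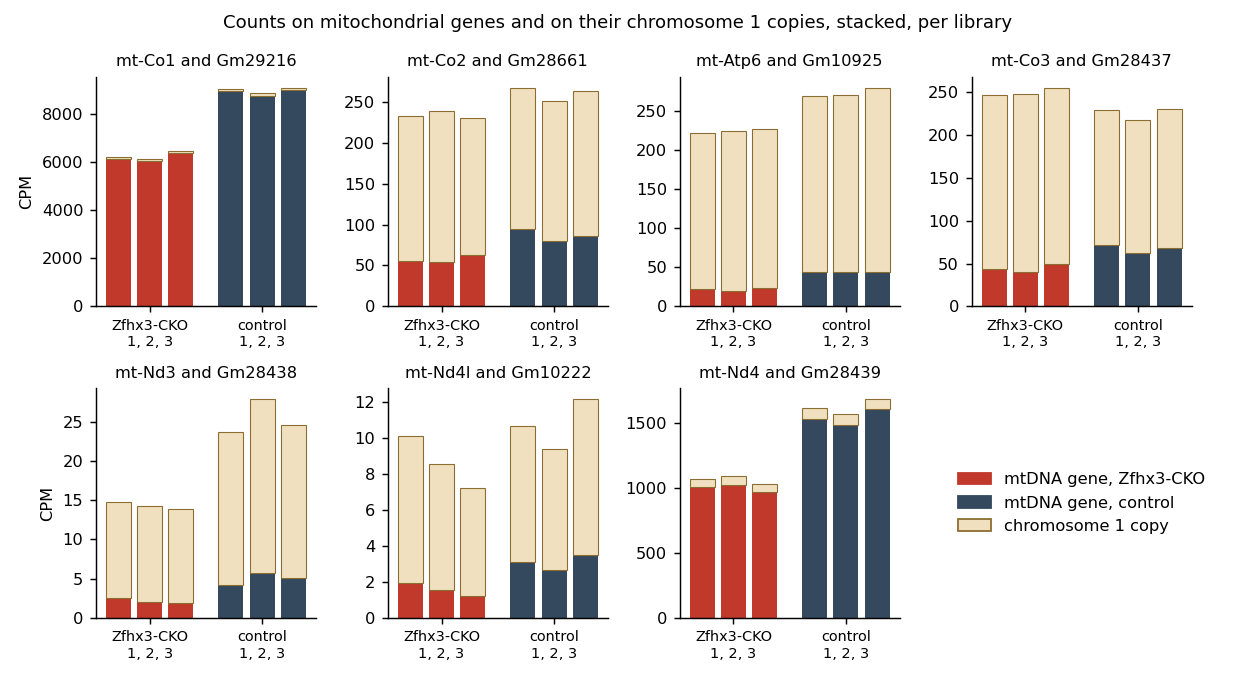
CPM per library on 7 mitochondrially encoded genes (red, Zfhx3-CKO; grey-blue, control) with the CPM on their chromosome 1 copies stacked above them (cream). The copies take most of the counts of mt-Co2, mt-Atp6, mt-Co3, mt-Nd3 and mt-Nd4l and little of those of mt-Co1 and mt-Nd4, and the stacked bar of mt-Co3 is higher in the Zfhx3-CKO libraries.

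The genes with most counts were little touched by this addition. With copies added, a setting tried once these values were known, mt-Co1 moved to -0.52 ± 0.06 and mt-Nd4 to -0.61 ± 0.06, since the copies held 1.17 to 1.36% of the pair's counts in Zfhx3-CKO libraries and 0.94 to 1.005% in control libraries for mt-Co1, and 5.94 to 6.44% in Zfhx3-CKO and 4.61 to 5.40% in control libraries for mt-Nd4. Over the 12 tested genes the median then was -0.59 and 9 were called lower, beside 571 of all 16544 genes tested in that fit. Since the group was chosen on this difference, these values too are a description only. The median of the 5 tested genes with no annotated chromosome 1 copy (mt-Nd1, mt-Nd2, mt-Nd5, mt-Nd6 and mt-Cytb) was -0.77. Of these, mt-Nd2 and mt-Nd5 match other annotated transcripts, as given above, so their counts are not free of this limit.

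Ribosomal RNAs of the mitochondrial genome were also lower. mt-Rnr1 and mt-Rnr2, the mitochondrial ribosomal RNAs, were at 179, 212 and 223 and at 268, 293 and 306 CPM in Zfhx3-CKO libraries, against 378, 343 and 336 and 729, 662 and 630 CPM in control libraries, with log2 fold changes of -0.78 and -1.22. The mitochondrial transfer RNA gene mt-Tp was at 19.6, 25.97 and 24.2 CPM in Zfhx3-CKO libraries and at 30.5, 27.2 and 27.1 CPM in control libraries (-0.28, edgeR adjusted p 0.197). Among nuclear transcripts, and chosen after their values were seen, CT010467.1, of biotype rRNA in the deposited table, was at 42.5, 36.7 and 35.4 CPM in Zfhx3-CKO libraries and at 329, 387 and 133 CPM in control libraries (-2.89). Malat1, a nuclear-retained long non-coding RNA, was at 135, 107 and 122 CPM in Zfhx3-CKO libraries and at 188, 218 and 151 CPM in control libraries (-0.61). mt-Rnr1, mt-Rnr2, CT010467.1 and Malat1 were lower in every Zfhx3-CKO library than in every control library, and their part in the mitochondrial result was not tested. The label names total RNA, and the sources used here do not say how ribosomal RNA was removed.

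Fold change also moved with base composition across all genes. The 12 tested mitochondrially encoded genes have 33.0 to 41.1% GC, against a median of 50.02% in the 89 tested nuclear members. Over all 16507 tested genes with a GC value the Spearman correlation of log2 fold change with GC was 0.28, and over the 89 nuclear members it was 0.29, both as descriptions across genes that share 6 libraries. The 1645 nuclear genes within the GC range of the mitochondrially encoded genes were at a median of -0.16 in log2 fold change, and 8.75% of them were called lower. Removal of trends with GC and length, likewise tried once the values were known, left the mitochondrially encoded median at -0.40. In that fit 9 of the 12 were called lower, beside 577 of all 16551 tested genes. Since the group was chosen on this difference, these values are a description only.

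**Figure D3:**
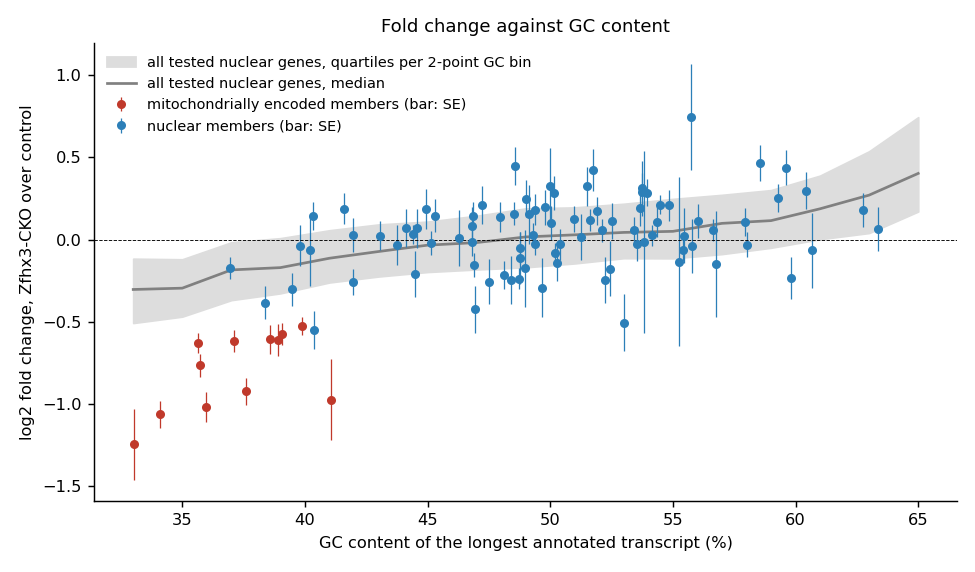
Log2 fold change (Zfhx3-CKO over control) against GC content (%) for the 12 tested mitochondrially encoded genes (red) and the 89 tested nuclear members (blue), with SE bars, over the median (line) and quartiles (band) of all tested nuclear genes per GC bin. The band slopes upward with GC, and the mitochondrially encoded genes lie below it at 33.0 to 41.1% GC.

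The nuclear members did not share the difference. Of 92, 89 passed the filter, and Cox6a2, Cox7b2 and Cox8c did not. By edgeR's quasi-likelihood test with Benjamini-Hochberg adjustment over all tested genes, 2 rose (Cox8a and Ndufs7) and 1 fell (Uqcrb), which is 2.25 and 1.12% of the 89, beside a background of 3.87 and 3.48%. Their median log2 fold change was 0.03, and 52 of the 89 were above 0. In 16 genes every Zfhx3-CKO library was above every control library and in 12 every one was below, 18.0 and 13.5% of the 89 beside 15.5 and 15.9% of all tested genes, so neither share stood far from the background. Without Zfhx3-CKO library 3 the counts were 10 higher and 2 lower, and without control library 1 or 2 they were 0 and 0. The authors' deposited table has 5 nuclear members higher and 3 lower at an adjusted p under 0.05 and marks 0 of them as significant.

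**Figure D4:**
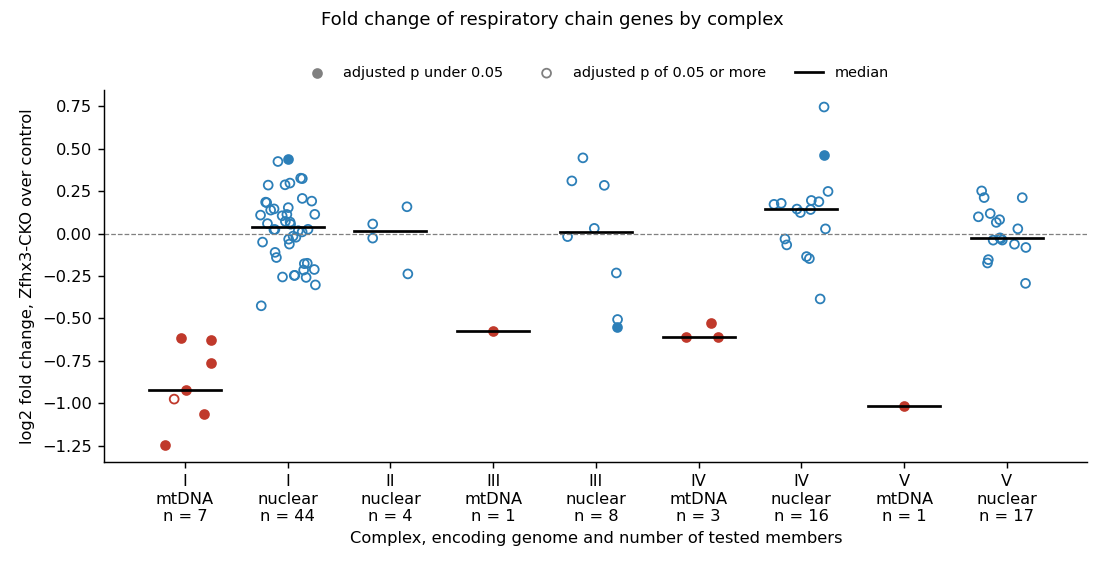
Log2 fold change (Zfhx3-CKO over control) of each tested gene by complex and encoding genome, filled where the edgeR adjusted p was under 0.05, with a line at each median. The mitochondrially encoded medians lie between -1.02 and -0.57, and the nuclear medians lie between -0.02 and 0.14.

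In complex I, 1 of 44 nuclear genes rose and none fell, with a median log2 fold change of 0.04. Ndufs7, which carries the last iron-sulphur cluster before ubiquinone, was at 41.3, 43.2 and 39.4 CPM in Zfhx3-CKO libraries and at 27.0, 30.0 and 34.4 CPM in control libraries, and the groups did not overlap. Its log2 fold change was 0.44 ± 0.11 (SE, edgeR adjusted p 0.0431), and the call was lost without any of 4 libraries (Zfhx3-CKO 1 or 2, control 1 or 2; highest adjusted p 0.156), when Zfhx3-CKO libraries 1 and 3 were both left out (0.0537), and with GC and length trends removed (0.30, adjusted p 0.0811). Of the other nuclear core subunits, Ndufv1, which binds NADH, averaged 84.7 ± 4.02 CPM in Zfhx3-CKO libraries and 81.3 ± 2.72 CPM in control libraries (SD, n = 3 each). Ndufv2, an iron-sulphur subunit beside it, was at 65.8, 59.5 and 63.2 CPM in Zfhx3-CKO libraries, below the 77.2, 68.5 and 79.8 CPM in control libraries, but missed the threshold (-0.26, edgeR adjusted p 0.0912).

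Ndufs1, a large core subunit, differed by -0.02 (edgeR adjusted p 0.884), and Ndufs8, an iron-sulphur subunit, by 0.21 (edgeR adjusted p 0.201). Ndufs3 had the widest spread, with 2.89, 3.91 and 12.1 CPM in Zfhx3-CKO libraries and 3.76, 10.3 and 5.02 CPM in control libraries, and 792 of its bases match Gm12251 at 98.6% identity, so its count is uncertain. The lowest fold in complex I was that of the accessory subunit Ndufb8, at 25.2, 20.9 and 18.0 CPM in Zfhx3-CKO libraries and 28.2, 25.8 and 32.1 CPM in control libraries (-0.43, edgeR adjusted p 0.108). Of 8 complex I assembly factors named in the Ndufaf series, which help to build the complex without staying in it, 0 passed the edgeR or the DESeq2 test, and 1 was lower at an unadjusted edgeR p under 0.05 (Ndufaf4, -0.30).

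Complex II, with no mitochondrially encoded subunit, had 0 of 4 genes past the threshold by the main edgeR fit or DESeq2, and 1 lower at an unadjusted edgeR p under 0.05. Sdha, the flavoprotein that oxidises succinate, was at 187, 200 and 175 CPM in Zfhx3-CKO libraries and at 163, 174 and 167 CPM in control libraries (0.16, edgeR adjusted p 0.206). Sdhc, a membrane anchor, was at 67.9, 68.3 and 65.7 CPM in Zfhx3-CKO libraries and at 77.3, 79.5 and 81.4 CPM in control libraries, so its groups did not overlap, but it missed the threshold (-0.24, edgeR adjusted p 0.0563). With the strict filter of at least 5 CPM in 3 libraries it passed (-0.24, edgeR adjusted p 0.047). Sdhb, the iron-sulphur subunit, and Sdhd, the other anchor, differed by 0.06 and -0.03. The summed level of the 4 was 411 ± 25.6 CPM in Zfhx3-CKO libraries and 401 ± 5.31 CPM in control libraries (SD, n = 3 each).

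In complex III, 1 of 8 nuclear genes fell and none rose. Uqcrb, which binds ubiquinone near cytochrome b, was at 16.8, 15.8 and 13.7 CPM in Zfhx3-CKO libraries and at 21.4, 23.2 and 23.3 CPM in control libraries, with no overlap. Its log2 fold change was -0.55 ± 0.12 (SE, edgeR adjusted p 0.0275), close to that of mt-Cytb in the same complex. The call was lost without any of 4 libraries (Zfhx3-CKO 1 or any control; highest adjusted p 0.126) and with GC and length trends removed (-0.36, adjusted p 0.0864), and 225 of its bases match Gm2962 at 98.2% identity. Uqcrfs1, the Rieske iron-sulphur protein, was at 106, 106 and 101 CPM in Zfhx3-CKO libraries and at 77.2, 62.8 and 89.7 CPM in control libraries, above them all but just outside the threshold (0.45, edgeR adjusted p 0.0558). Uqcrfs1 was past it by edgeR with no filter (adjusted p 0.00948), with GC and length trends removed (0.0293) and without control library 3 (0.0295) or Zfhx3-CKO library 3 (0.0426). DESeq2 also called it higher (adjusted p 0.00985), while over the fits with 1 library left out the edgeR adjusted p reached 0.179. Uqcrc1, a core protein, was at 28.04, 40.1 and 46.8 CPM in Zfhx3-CKO libraries and at 47.9, 57.7 and 57.8 CPM in control libraries (-0.51, edgeR adjusted p 0.111).

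In complex IV, 1 of 16 tested nuclear genes rose and none fell, and the median log2 fold change was 0.14. Cox8a, the small subunit used in most tissues, was at 122, 116 and 92.6 CPM in Zfhx3-CKO libraries and at 76.6, 75.9 and 86.7 CPM in control libraries, with no overlap. Its log2 fold change was 0.46 ± 0.11 (SE, edgeR adjusted p 0.0411), and the call was lost without any of 5 libraries (all but Zfhx3-CKO 3; highest adjusted p 0.157) and with GC and length trends removed (0.38, adjusted p 0.0604). Cox7c, another small membrane subunit, was at 63.9, 51.0 and 50.7 CPM in Zfhx3-CKO libraries and at 71.0, 70.9 and 74.5 CPM in control libraries, on the opposite side and just outside the threshold (-0.39, edgeR adjusted p 0.0533). Cox7c was past the threshold without Zfhx3-CKO library 1 (-0.50, edgeR adjusted p 0.0289), and its call also changed without Zfhx3-CKO libraries 1 and 3 (-0.50). Over 17 alternatives its log2 fold change ran from -0.50 to -0.13. The highest adjusted p over these fits, by edgeR, DESeq2 or limma-trend, was 0.465. Of its bases, 233 match Gm10012 at 99.6% identity.

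Cox4i1, the regulatory subunit found in most tissues, averaged 80.7 ± 2.91 CPM in Zfhx3-CKO libraries and 82.5 ± 6.76 CPM in control libraries (SD, n = 3 each). The isoforms typical of other tissues were near the limit of detection. Cox6a2, Cox8c and Cox7b2, known from muscle and testis, had at most 2 counts in any library, while Cox7a1, Cox4i2, Cox6b2 and Ndufa4l2 were at 0.24 to 3.17 CPM in Zfhx3-CKO libraries and 0.25 to 4.09 CPM in control libraries. None of these 4 passed by edgeR or DESeq2, and Cox6b2, the 1 higher at an unadjusted edgeR p under 0.05 and a testis isoform, had the highest fold in complex IV (0.75 ± 0.32, edgeR adjusted p 0.192) on counts this low.

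In complex V, 0 of 17 nuclear genes passed by edgeR, with a median of -0.02. The 17 include Atp5s and Atp5sl, which share the name but were not counted as subunits, so the ratios below used 15. At an unadjusted edgeR p under 0.05 there were 2 higher and 1 lower. DESeq2 called 1 higher, Atp5a1, beside 1011 of all 29659 genes. Atp5b, the catalytic beta subunit, was at 913, 883 and 848 CPM in Zfhx3-CKO libraries and at 770, 818 and 848 CPM in control libraries (0.12, edgeR adjusted p 0.292), the highest counts of any nuclear member. Atp5a1, the alpha subunit, was at 650, 650 and 647 CPM in Zfhx3-CKO libraries and at 555, 581 and 545 CPM in control libraries, with no overlap but outside the threshold (0.21, edgeR adjusted p 0.0629). Atp5c1, the rotating gamma subunit, differed by -0.08, and the 3 genes for the proton-carrying c ring, Atp5g1, Atp5g2 and Atp5g3, by 0.08, 0.07 and 0.03. The extremes were Atp5e (-0.29) and Atp5d (0.25), small subunits of the central stalk, at edgeR adjusted p of 0.338 and 0.108.

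Setting the 2 genomes side by side, the ratio of summed CPM of mitochondrially encoded to nuclear subunits was lower in every Zfhx3-CKO library than in every control library in all 4 complexes. The numerators are the mitochondrial values on which the group was chosen, so the ratios describe the libraries and support nothing further. In complex I it was 3.74, 4.10 and 3.84 in Zfhx3-CKO libraries and 7.01, 6.91 and 6.60 in control libraries. In complex III it was 6.39, 6.05 and 6.00 in Zfhx3-CKO libraries and 9.98, 9.55 and 9.10 in control libraries, and in complex IV 7.19, 7.58 and 8.90 in Zfhx3-CKO libraries and 13.003, 12.5 and 11.6 in control libraries. The log2 differences of the means were -0.81, -0.64 and -0.65.

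In complex V the ratio was 0.00893, 0.00784 and 0.00991 in Zfhx3-CKO libraries and 0.0192, 0.0183 and 0.0175 in control libraries, a log2 difference of -1.04. Its numerator is mt-Atp6 and mt-Atp8 alone, and with the chromosome 1 copy added the difference was -0.36. With the mean log2 CPM over genes in place of the sum it turned to 0.84, since that measure gives mt-Atp8 the same weight as mt-Atp6. The nuclear sums overlapped between groups in all 4 complexes, at 1348 ± 62.3 and 1302 ± 49.7 CPM for complex I, 437 ± 14.6 and 420 ± 24.2 for complex III, 803 ± 69.9 and 734 ± 45.7 for complex IV and 2540 ± 75.4 and 2393 ± 88.0 for complex V in Zfhx3-CKO and control libraries (SD, n = 3 each).

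**Figure D5:**
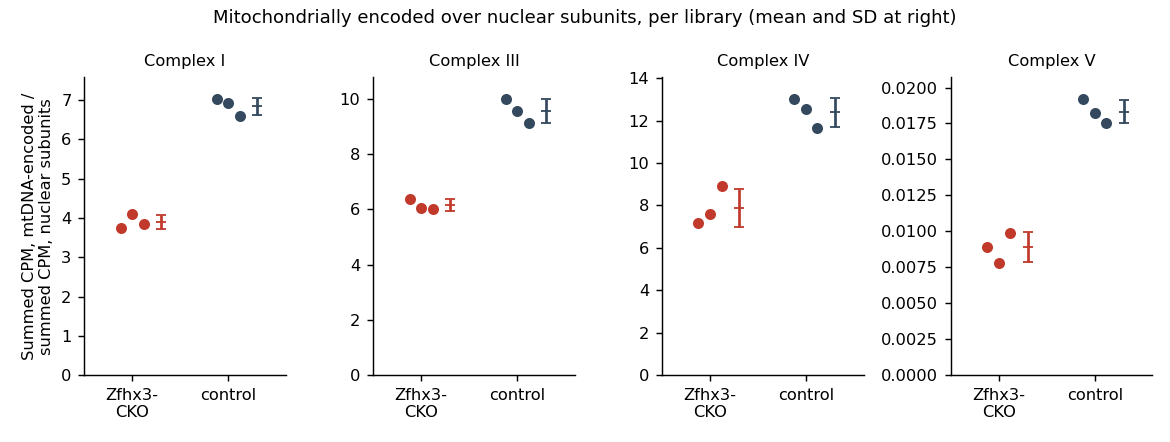
Ratio of summed CPM of mitochondrially encoded subunits to summed CPM of nuclear subunits (no unit) per library in complexes I, III, IV and V, with Zfhx3-CKO libraries on the left, control libraries on the right and mean ± SD beside the points. The groups do not overlap in any panel, and complex V runs on a far smaller scale because mt-Atp6 and mt-Atp8 had few counts.

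Of genes around the respiratory chain, lists drawn up with earlier results of these data known showed few changes by edgeR at an adjusted p under 0.05, with 0 or 1 gene called in each list (3.70 to 8.33% of a list where 1 was called), beside 3.87% of all tested genes called higher and 3.48% called lower. Of 17 genes for mitochondrial DNA transcription and replication, 1 rose and none fell, with a median log2 fold change of -0.05. That gene was Polg, the mitochondrial DNA polymerase, at 90.7, 88.4 and 86.4 CPM in Zfhx3-CKO libraries and 70.4, 73.5 and 74.4 CPM in control libraries (0.28 ± 0.06, edgeR adjusted p 0.0334). Of 17 tested genes for processing and stability of mitochondrial RNA, 1 fell, with a median of 0.01. That gene was Mtpap, the mitochondrial poly(A) polymerase, at 28.5, 27.9 and 27.6 CPM in Zfhx3-CKO libraries and 34.97, 39.5 and 35.2 CPM in control libraries (-0.38 ± 0.09, edgeR adjusted p 0.0369). Polg and Mtpap did not overlap between groups, and with GC and length trends removed both calls were lost (edgeR adjusted p 0.231 and 0.0781), as each was without any 1 of several libraries (highest adjusted p 0.140 and 0.166) and without Zfhx3-CKO libraries 1 and 3 (adjusted p 0.0849 and 0.0838).

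None of 11 tested regulators of mitochondrial biogenesis, such as the nuclear respiratory factors and their coactivators, passed by edgeR (median 0.20), nor did any of 17 tested genes for electron carriers and coenzyme Q synthesis (median 0.01) or of 17 for protein import and the outer membrane (median 0.01). At an unadjusted edgeR p under 0.05 the 3 lists had 3, 2 and 0 genes higher and 0, 1 and 1 lower, and DESeq2 called 1, 0 and 0 higher and none lower. Of all 29659 genes DESeq2 called 1011 higher and 755 lower. The share of all genes at an unadjusted p under 0.05 was not worked out, so those counts support no result about these lists. Of 27 tested assembly factors outside the name pattern, 1 rose, Cox11, which delivers copper to complex IV. It was at 9.40, 8.67 and 7.63 CPM in Zfhx3-CKO libraries and 3.10, 1.83 and 4.30 CPM in control libraries (1.47 ± 0.27, edgeR adjusted p 0.0178), and the call was lost without Zfhx3-CKO library 1 (adjusted p 0.0758) or control library 1 (0.0974).

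In the TCA cycle list 1 of 18 genes rose, Pdha1, the X-linked alpha subunit of pyruvate dehydrogenase (75.6, 77.7 and 73.2 CPM in Zfhx3-CKO libraries and 61.4, 59.0 and 56.0 CPM in control libraries; 0.36 ± 0.07, edgeR adjusted p 0.0194). In the glycolysis list 1 of 19 rose, Gapdh, the glyceraldehyde-phosphate dehydrogenase, at 113, 99.5 and 121 CPM in Zfhx3-CKO libraries and 63.2, 67.3 and 74.5 CPM in control libraries (0.70 ± 0.10, edgeR adjusted p 0.00512). Among 12 tested stress and chaperone genes 1 rose, Lonp1, a matrix protease (0.38 ± 0.08, edgeR adjusted p 0.027). The medians of these 3 lists were 0.08, 0.12 and -0.02, beside 0.00 over all tested genes. Every Zfhx3-CKO library was above every control library in 33.3, 21.1 and 16.7% of their genes, beside 15.5% of all. Every one was below in 11.1, 0 and 16.7%, beside 15.9% of all. DESeq2 called 1, 3 and 1 higher and 1, 0 and 0 lower, beside 1011 and 755 of all 29659 genes. The call of Pdha1 was lost without any of 4 libraries (highest adjusted p 0.0917) and that of Lonp1 without any of 3 (0.124) and with GC and length trends removed (0.30, adjusted p 0.0826). Among the members themselves Ndufa1, Ndufb11 and Cox7b are X-linked, and they differed by -0.26, 0.11 and 0.03 (edgeR adjusted p 0.281, 0.554 and 0.894), while sex and genotype cannot be told apart in these libraries.

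As a feature the name rule did not use, promoters of nuclear members were searched for short cores of factors known for respiratory chain genes. Of the 92 nuclear members, 73 matched RefSeq promoters (GRCm38.p6, 250 bases before to 50 after the start), giving 78 promoters, searched on both strands. CGCATGCG, the core of the nuclear respiratory factor NRF1, was in 11 of the 78 (14.1%), beside 3.47% of 14446 promoters of tested genes and 1.87% of all 32851. CCGGAAG, a core of the ETS factor GABPA, was in 18 (23.1%), beside 15.6 and 8.86%, and AAGATGG, a core of YY1, was in 11 (14.1%), beside 6.58 and 6.34%. The last 3 letters of the GABPA core can be the start of the YY1 core, so the same bases can count for both. Of the 3 nuclear members past the threshold, the letters of GABPA were in the Cox8a promoter and those of YY1 in the Ndufs7 promoter. A match is a description of these letters and not a binding site.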

How the data were processed

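Alignment and counting were done by the authors. Per the submitters' processing notes, the tools were edgeR, StringTie, HISAT2 and bcl2fastq 2.17.1.14, with mm10 and GRCm38.p4 as builds, and no roles are given. The deposited counts are whole numbers per gene, per the file headers. The deposited FPKM values were scaled by the authors for library total and gene length. The authors' deposited log2 fold changes, p-values, linear fold changes and mean normalised signal come from a test that the files do not name. A full table (29659 genes) and a shorter one (3726) were read. Columns of the full table were tied to samples by group word and number, and counts matched those under the sample titles in the shorter table for all 3726 genes.

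Counts were tested with edgeR 4.0.16 (quasi-likelihood; limma 3.58.1, R 4.3.3), TMM factors, filterByExpr (minimum count 10; 16551 genes kept), group as the only term and Benjamini-Hochberg adjustment over all tested genes at 0.05. The SE was taken from the F statistic. Counts at an unadjusted p under 0.05 are given without the share of all tested genes, which was not worked out. The fit was tested on simulated data. Alternatives were DESeq2 1.42.0, RLE factors, library totals only, factors without mitochondrial genes, no filter, at least 5 CPM in 3 libraries, limma-trend on log2(FPKM + 1), a replicate block, each library left out, Zfhx3-CKO libraries 1 and 3 left out and, chosen after the data were seen, GC and length trends removed and chromosome 1 copies added to their gene. A sign change of a gene past the threshold in neither setting was taken as a reversal only if it exceeded the SE. Mean log2 CPM used a pseudocount of 0.1. Libraries of a group differed by more than sampling noise (chi-square per gene 3.35 to 29.3), so each was kept.

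The members and lists were chosen with earlier results of these data known. The text names all 13 mitochondrially encoded members, nuclear core subunits, tissue isoforms, nuclear members past the threshold, the extreme folds of each complex and up to 4 passing members of each list, apart from a result that is not reported here. Cox4i1, Uqcrc1, the X-linked members, the ribosomal RNAs and Malat1 were named outside that rule, after their values were seen. GC content and copies come from the longest GENCODE vM21 transcript (GRCm38). Positions are those of the deposited table, 89 of 105 with the same start and end in vM21.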

Additional observations from a re-analysis of the deposited data

How the results depend on the processing

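The mitochondrially encoded genes had 9 to 12 calls lower under every alternative run, with 10 tested under the strict filter and 12 or 13 otherwise. Since the group was chosen on this difference, these counts are a description only. DESeq2, no filter, limma-trend and the fit without Zfhx3-CKO library 2 added 1 call higher, that of mt-Atp8. Their median log2 fold change was -0.70 to -0.63 when each library was left out in turn, -0.40 with GC and length trends removed and -0.59 with chromosome 1 copies added. With copies added mt-Co3 turned to 0.15. RLE factors, library totals only and factors without mitochondrial genes each gave 11 lower.

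Nuclear members past the threshold, 2 higher and 1 lower, were 5 and 3 with DESeq2, 3 lower with no filter, 2 lower with the strict filter, 1 higher with limma-trend, 0 lower with GC and length trends removed, and 4 and 3 without Zfhx3-CKO libraries 1 and 3, where 1 Zfhx3-CKO library remains, is assumed to vary like the controls, and the controls alone give the spread. Leaving out each library gave 0 to 10 higher and 0 to 2 lower. Their median was 0.03 to 0.09 in those fits. Over all tested genes, 640 higher and 576 lower became 1075 higher with no filter and 1011 higher with DESeq2, and 156 to 1082 higher and 131 to 1014 lower when each library was left out. With the replicate number as a block, 176 genes were higher and 136 lower, 0 and 0 among nuclear members, and 10 mitochondrially encoded genes were lower. Same-numbered libraries deviated with correlations of -0.03, -0.08 and -0.25, which give no sign of pairing by number. With 3 libraries per group the deviations are tied to each other, so they cannot settle whether the numbers pair the libraries.

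The log2 differences of the ratios ranged over -0.85 to -0.78 (complex I), -0.67 to -0.60 (III), -0.75 to -0.59 (IV) and -1.13 to -0.96 (V) when each library was left out. Mean log2 CPM gave -0.91 for complex I, -0.54 for complex III and 0.84 for complex V. Summed FPKM gave -0.90 and added copies -0.36 for complex V, and Zfhx3-CKO library 2 alone against the controls gave -0.74 for complex I and -1.23 for complex V. The causes were not tested.

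Signs of other named genes, none past the threshold, reversed for Atp5g2 with GC and length trends removed (-0.27) and without Zfhx3-CKO replicate 2 (-0.093 to 0.20 over libraries left out), Ndufs1 with those trends removed (0.057), Ndufa4l2 without control replicate 2 (-0.17 to 0.17 over libraries left out), Cox4i2 without control replicate 3 (-0.37 to 0.19) and Atp5g1 without Zfhx3-CKO replicates 1 and 3 (-0.14). Counts under about 100 per library limit mt-Nd3, mt-Nd4l, mt-Atp8 and the tissue isoforms.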

Other observations

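Replicate spread differed between the kinds of gene. The median coefficient of variation of CPM over 3 libraries was 7.99% in Zfhx3-CKO and 3.57% in control libraries for the 12 tested mitochondrially encoded genes, and 9.25% and 6.52% for the 89 tested nuclear members. Ndufs5, an accessory complex I subunit, was at 14.8 CPM in Zfhx3-CKO library 1, against 31.4 and 27.6 CPM in the other Zfhx3-CKO libraries and 27.3, 28.2 and 27.8 CPM in control libraries, and 319 of its bases match BC002163 at 99.4% identity. Of the 92 nuclear members, 28 had a stretch of at least 100 bases at 95% identity or more in another annotated transcript, and 32 shared exon bases with another gene, so their counts can hold reads of other genes. These features were read after their values were seen.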
